A study of Mus musculus with 22 samples.

Results

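The 10 hepatic acute phase genes described here were followed across mouse liver RNA: Saa1, Saa2, Saa3, Saa4, Orm1, Orm2, Orm3, Lcn2, Hp and Itih3. They were chosen by gene symbol, and all 10 were found among the 24475 genes of the deposited expression table. All 10 also reached the minimum mean level for testing, an average of 0.5 RPKM over the 22 libraries, which 11590 genes passed. RPKM is a read count scaled to the length of the transcript and the depth of the library, so that levels can be compared between genes.

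The 22 libraries were made from livers of mice labelled Gcg KO or WT. Gcg encodes the precursor of glucagon, which is also the precursor of the glucagon-like peptides, so that its loss removes these peptides too. Each genotype was sampled without infusion (n = 3 each), with glucagon infused at 30 µg per day (n = 4 each) and at 150 µg per day (n = 4 each). Libraries carry a running number in their titles, used here as their name: Gcg KO without infusion 4 to 6, WT without infusion 1 to 3, Gcg KO at 30 µg per day 11 to 14, WT at 30 µg per day 7 to 10, Gcg KO at 150 µg per day 19 to 22 and WT at 150 µg per day 15 to 18. The labels used here state no vehicle infusion, length of infusion, age, sex or strain, and do not say that each library is a separate mouse. The p-values below therefore measure spread between libraries, which may be technical. Gcg itself was listed at 0 RPKM in all 22 liver libraries of both genotypes, and so does not check the genotype labels.

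The acute phase response is the change in secreted plasma proteins that the liver makes during infection, injury or inflammation. Interleukin-6 and interleukin-1 act on hepatocytes through STAT3, NF-kappa-B and the C/EBP transcription factors, and glucocorticoids act together with them. Saa1 and Saa2 encode serum amyloid A, an apolipoprotein that joins high-density lipoprotein in inflammation. Saa3 is made in macrophages and fat as well as liver, and Saa4 encodes the constitutive form. Orm1, Orm2 and Orm3 encode orosomucoids (alpha-1-acid glycoproteins), which bind lipids and drugs in plasma. Lcn2 encodes lipocalin 2, which takes iron-loaded siderophores away from bacteria. Hp encodes haptoglobin, which binds free haemoglobin, and Itih3 encodes a heavy chain of the inter-alpha-trypsin inhibitor family that binds hyaluronan.

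Both gene families lie in tight clusters. Saa3, Saa4, Saa1 and Saa2 lie within 42.3 kb on chromosome 7 (chr7:46711998-46754313, GRCm38.p6), and Orm1, Orm3 and Orm2 within 21.3 kb on chromosome 4 (chr4:63344556-63365877). Lcn2 lies on chromosome 2 (chr2:32384637-32387739), Hp on chromosome 8 (chr8:109575128-109579172) and Itih3 on chromosome 14 (chr14:30908572-30923787). The annotated coding sequences of Saa1 and Saa2 are 95.1% identical (348 of 366 bases), and their encoded proteins 92.6% (113 of 122 residues). Saa4 is the most distant in its family, at 64.4% of aligned coding bases against Saa1. Orm1 and Orm2 share 89.9% of coding bases, Orm2 and Orm3 87.9%, and Orm1 and Orm3 86.0%. No source used here gives how reads shared between such copies were counted, so the division of reads between Saa1 and Saa2, and among the Orm genes, is uncertain in every value below, whereas the sum of a family is less exposed to it. RefSeq lists Saa2 among the older synonyms of Saa1 and Saa1 among those of Saa2, and the symbols here are those of the deposited table.

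Promoters are shown for 2 pairs of close copies whose levels are compared below, Saa1 with Saa2 and Orm2 with Orm3. Each window runs from 250 bases before a start point to 50 after it (GRCm38.p6), printed 5′ to 3′ on the strand of the gene. For Saa2 and Orm2 this point is the RefSeq gene start. For Saa1 and Orm3 it lies inside the gene, which spans chr7:46740497-46743181 and chr4:63356069-63359506. Capitals mark matches to the C/EBP motif TTNNGNAA on either strand and, in Orm3, also a match to the glucocorticoid response element ACANNNTGT. Saa1 spans chr7:46742931-46743230 on the minus strand, Saa2 chr7:46751583-46751882 on the plus strand, Orm2 chr4:63362199-63362498 and Orm3 chr4:63355908-63356207, both on the plus strand.
Saa1: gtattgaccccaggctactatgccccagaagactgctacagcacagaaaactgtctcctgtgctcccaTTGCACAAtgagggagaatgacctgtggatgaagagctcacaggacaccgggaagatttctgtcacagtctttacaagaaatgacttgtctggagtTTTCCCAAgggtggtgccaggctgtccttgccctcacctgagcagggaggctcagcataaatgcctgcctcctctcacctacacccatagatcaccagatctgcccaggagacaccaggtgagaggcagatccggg
Saa2: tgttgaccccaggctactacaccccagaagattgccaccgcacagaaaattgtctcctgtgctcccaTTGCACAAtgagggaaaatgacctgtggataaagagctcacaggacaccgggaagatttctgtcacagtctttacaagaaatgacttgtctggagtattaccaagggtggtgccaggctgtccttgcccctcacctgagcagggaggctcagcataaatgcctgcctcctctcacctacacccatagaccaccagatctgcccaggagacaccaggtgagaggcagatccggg
Orm2: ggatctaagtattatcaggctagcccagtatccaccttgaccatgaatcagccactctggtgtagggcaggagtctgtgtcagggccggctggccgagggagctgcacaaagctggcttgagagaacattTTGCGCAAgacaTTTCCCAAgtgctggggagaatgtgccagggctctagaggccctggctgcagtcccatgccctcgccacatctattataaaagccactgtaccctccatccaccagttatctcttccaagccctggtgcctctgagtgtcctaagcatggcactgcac
Orm3: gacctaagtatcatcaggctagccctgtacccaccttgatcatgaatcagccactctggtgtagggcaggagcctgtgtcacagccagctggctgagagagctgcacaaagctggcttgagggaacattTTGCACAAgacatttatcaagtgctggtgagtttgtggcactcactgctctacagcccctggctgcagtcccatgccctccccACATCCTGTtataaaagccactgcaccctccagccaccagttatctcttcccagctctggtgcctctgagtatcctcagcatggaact
The Saa1 and Saa2 windows are identical at 287 of 301 aligned columns (95.3%). Positions here count from the start point of each window, which in Saa1 and Orm3 is not the RefSeq gene start. Both hold the match TTGCACAA, at bases -182 to -175 in Saa1 and -183 to -176 in Saa2. Saa1 holds a second one, TTTCCCAA at -86 to -79, the only C/EBP match in either window that the other lacks. The Orm2 and Orm3 windows are identical at 263 of 305 aligned columns (86.2%). Orm2 holds TTGCGCAA at -120 to -113 and TTTCCCAA at -108 to -101, whereas Orm3 holds TTGCACAA at -121 to -114 and the glucocorticoid response element match ACATCCTGT at -38 to -30. Windows were at hand for 8 of the 10 genes, all but Orm1 and Hp, and 7 of these 8 (all but Itih3) hold a C/EBP match, against 40.7% of all 32851 mouse windows of 300 bases. The Saa3 window (chr7:46715627-46715926) lies wholly inside its gene (chr7:46711998-46719615), and the start point of the Itih3 window also lies inside its gene. The glucocorticoid response element was found in Lcn2 and Orm3 (2 of 8, against 6.85% of all windows). None of the 8 held the STAT motif TTCNNNGAA (8.30% of all windows), the cAMP response element TGACGTCA (1.79%) or the kappa-B motif (8.46%). The kappa-B form searched was GGG, A or G, any base, any base, C or T, C or T, then CC. Each motif was searched in a single form, so a window without a match does not show that the gene lacks such sites. These are matches of letters, with no measurement of binding.

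Library totals estimated from the steps between low values were 11.17 to 17.82 M reads (median 13.82 M), and libraries of the same group correlated at rho of 0.963 to 0.974 (Spearman, across genes). The tissue label held: albumin reached 53681 RPKM, and all 7 hepatocyte markers were detected in every library. Libraries 4 and 13, of Gcg KO mice without infusion and at 30 µg per day, stood apart in genes that differ between male and female mouse liver. Their summed level of 16 female-biased genes was 550 and 111 RPKM, against at most 26.5 RPKM in the others. Library 17, of WT mice at 150 µg per day, stood apart in neutrophil markers, whose 12 genes summed to 62.1 RPKM, against 3.23 to 17.5 RPKM in the other 21 libraries. In bulk liver RNA, a change in the number of cells of a type and a change in RNA per cell cannot be told apart.

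All 10 genes varied far more between libraries of the same group than most liver genes did. The within-group standard deviation of log2(RPKM + 1) was 2.49 for Saa2, 2.14 for Saa1, 1.66 for Lcn2, 1.53 for Orm2, 1.34 for Saa3 and 1.202 for Orm3, against a median of 0.164 over the 11590 genes tested. Saa2 and Saa1 ranked 9 and 10 from the largest, behind Moxd1 and 7 major urinary protein genes, and Lcn2 ranked 25. Saa4 (0.705), Hp (0.658), Orm1 (0.5998) and Itih3 (0.427, rank 685) varied less, and all 10 lay within the top 5.91% of the genes tested. The share of variance that lay between the 6 groups was 60.5% for Orm2, 37.7 to 46.3% for Saa1, Saa2, Orm1, Lcn2, Hp and Itih3, and 18.3 to 26.0% for Orm3, Saa4 and Saa3. The median gene had 30.4% between groups, and 23.8% is the average for values with no group structure.

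**Figure D1:**
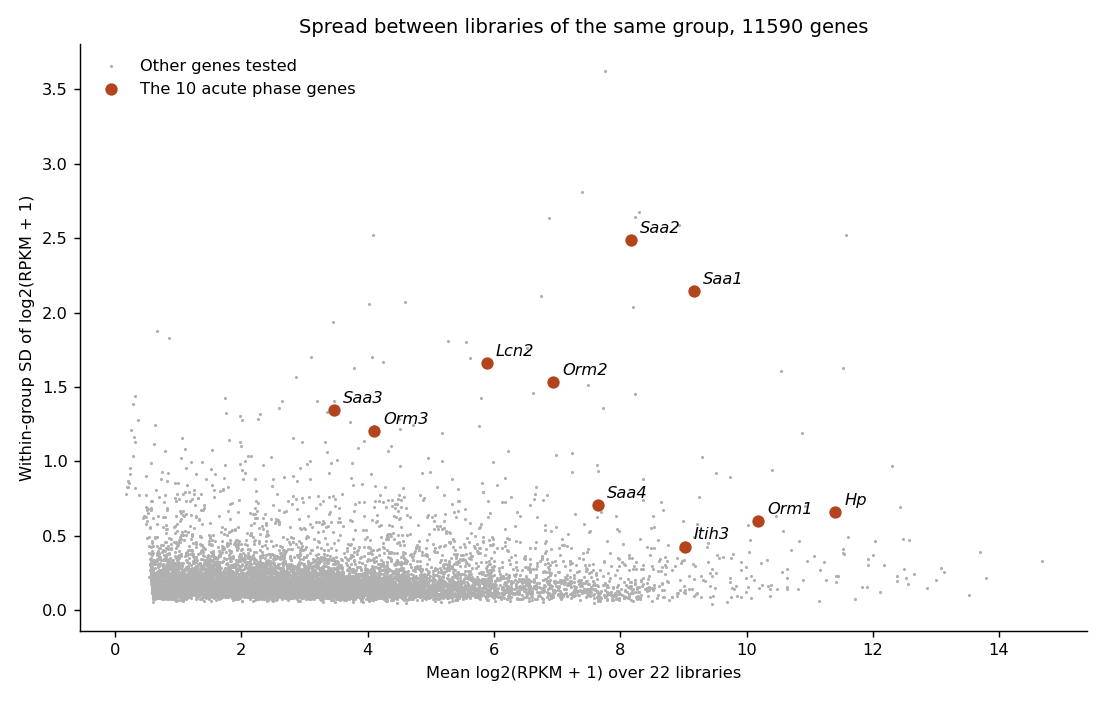
Within-group standard deviation of log2(RPKM + 1) (vertical) against mean log2(RPKM + 1) over 22 libraries (horizontal), 1 point per gene, for 11590 genes. The 10 acute phase genes, in red, lie above the grey mass, from 0.427 for Itih3 to 2.49 for Saa2, against a median of 0.164.

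The genes were high in the same few libraries, which belong to 4 of the 6 groups. Library 17 (WT, 150 µg per day) and library 22 (Gcg KO, 150 µg per day) were among the 6 highest libraries for all 10 genes, library 19 (Gcg KO, 150 µg per day) for 9, libraries 21 (Gcg KO, 150 µg per day) and 10 (WT, 30 µg per day) for 8, and library 1 (WT, no infusion) for 7. Library 20, the fourth of the Gcg KO mice at 150 µg per day, was among the 6 highest for none and among the 6 lowest for 5. The 10 genes together made up 5.20% of the summed RPKM in library 17 and 4.78% in library 19, against 0.452% in library 4, the lowest.

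**Figure D2:**
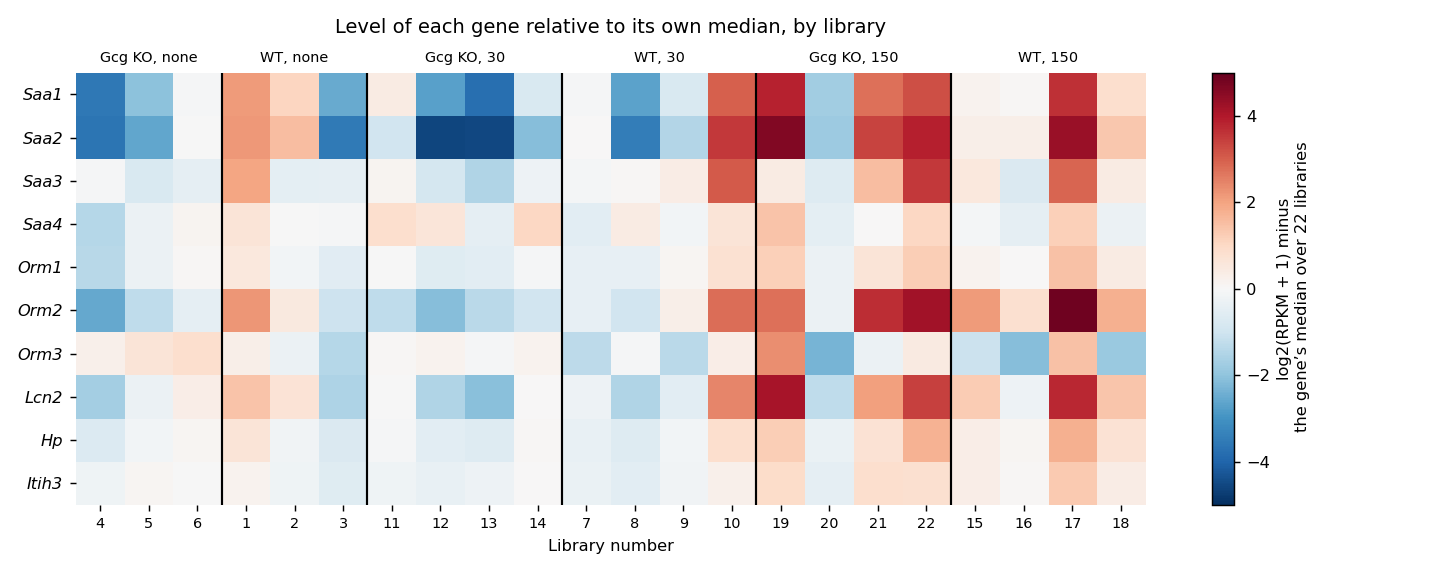
Heat map of log2(RPKM + 1) minus the median of each gene over 22 libraries (colour bar), with genes in rows and libraries in columns, ordered by dose and genotype. Libraries 17, 19 and 22 are red in nearly every row, whereas library 20 is blue beside its 3 partners.

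Saa1 gave the highest single value of the 10 genes, 8245 RPKM in library 19 of Gcg KO mice at 150 µg per day. Saa1 was measured at 46.4, 137 and 536 RPKM in Gcg KO livers without infusion, at 756, 86.0, 40.8 and 336 RPKM at 30 µg per day, and at 8245, 169, 3784 and 5234 RPKM at 150 µg per day. In WT livers Saa1 was at 2492, 1192 and 96.9 RPKM without infusion, at 547, 87.3, 334 and 4547 RPKM at 30 µg per day, and at 639, 584, 7145 and 1021 RPKM at 150 µg per day. At 150 µg per day, 3 of the 4 Gcg KO libraries exceeded all 7 other Gcg KO libraries, while library 20 lay among them, and the WT groups overlapped at all doses. The whole range of Saa1 was 202-fold.

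Saa2 followed Saa1 with a wider swing. It was at 24.2, 51.6 and 313 RPKM in Gcg KO livers without infusion, at 165, 12.3, 12.6 and 71.9 RPKM at 30 µg per day, and at 7987, 90.4, 3304 and 4657 RPKM at 150 µg per day. WT livers had 1425, 920 and 26.5 RPKM without infusion, 323, 27.8, 116 and 3684 RPKM at 30 µg per day, and 389, 389, 6351 and 801 RPKM at 150 µg per day. The lowest and highest Saa2 libraries, 12 and 19, differed 648-fold. Saa2 means were 4009 ± 3271 RPKM in Gcg KO mice at 150 µg per day and 129 ± 159 RPKM in those without infusion (SD, n = 4 and 3), and the SD of each was close to its mean or above it.

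Saa3 was a minor transcript, at 1.95 to 95.2 RPKM, and its highest libraries were 22 (95.2 RPKM), 10 (69.3 RPKM) and 17 (62.0 RPKM). Library 19, the highest for Saa1 and Saa2, had only 10.1 RPKM of Saa3. Saa4, the constitutive form, ranged 7.37-fold, from 64.6 RPKM in library 4 to 476 RPKM in library 19. Its mean was 286 ± 162 RPKM in Gcg KO mice at 150 µg per day and 270 ± 101 RPKM at 30 µg per day (SD, n = 4 each), and 135 ± 66.8 RPKM without infusion (n = 3), with overlapping values.

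The 3 orosomucoid genes differed in how much they moved. Orm1, the most abundant, averaged 1932 ± 790 RPKM in Gcg KO mice at 150 µg per day and 818 ± 367 RPKM in those without infusion (SD, n = 4 and 3), and it ranged 7.17-fold over all libraries. Orm2 was measured at 12.7, 32.8 and 57.8 RPKM in Gcg KO livers without infusion, at 32.6, 17.2, 30.6 and 40.1 RPKM at 30 µg per day, and at 538, 65.3, 1040 and 1489 RPKM at 150 µg per day. In WT livers Orm2 was at 367, 111 and 38.6 RPKM without infusion, at 59.2, 40.7, 96.7 and 552 RPKM at 30 µg per day, and at 351, 140, 2360 and 273 RPKM at 150 µg per day. All 4 Gcg KO livers at 150 µg per day, library 20 included, had more Orm2 than each of the 7 Gcg KO livers at the lower doses. Orm2 was the only one of the 10 genes for which Gcg KO livers at 150 µg per day and without infusion did not overlap. Values did not overlap in that comparison for 13.5% of the 11590 genes, so 1 of 10 is near the background.

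Orm3 did not have that pattern. It was at 23.3, 30.6 and 35.5 RPKM in Gcg KO livers without infusion, at 19.98, 21.8, 18.4 and 21.9 RPKM at 30 µg per day, and at 99.5, 3.04, 15.6 and 26.3 RPKM at 150 µg per day. The 30 µg per day values all lay below those without infusion, a separation found in 8.76% of genes tested, and the exact two-sided permutation test of that difference gave p = 0.0286 (n = 4 and 3), the smallest that it can give. Limma with adjustment over all genes did not call it (adjusted p = 0.873, log2 fold change -0.50). WT livers held 24.1, 15.5 and 6.54 RPKM of Orm3 without infusion, 7.19, 18.5, 6.92 and 24.3 RPKM at 30 µg per day, and 8.53, 3.64, 55.3 and 4.56 RPKM at 150 µg per day. Library 20 had the lowest and library 19 the highest Orm3 of all libraries, although both are of Gcg KO mice at 150 µg per day.

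Lcn2 was highest in the libraries that were high for Saa1. Its values were 12.3, 33.99 and 53.8 RPKM in Gcg KO livers without infusion, 41.5, 14.2, 9.13 and 43.3 RPKM at 30 µg per day, and 747, 17.1, 180 and 464 RPKM at 150 µg per day. In WT livers they were 114, 69.2 and 13.99 RPKM without infusion, 35.0, 14.3, 29.4 and 234 RPKM at 30 µg per day, and 105, 35.7, 584 and 111 RPKM at 150 µg per day. Libraries 19, 17 and 22 were the highest, and the groups overlapped in every comparison.

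Hp and Itih3 were abundant in every library and moved over a narrower range. Hp was at 5656, 1891, 3986 and 8103 RPKM in Gcg KO livers at 150 µg per day, against 1498, 2195 and 2577 RPKM in those without infusion. The highest Hp value, 8216 RPKM, was in library 17, and the lowest, 1468 RPKM, in library 3, a 5.60-fold range. Itih3 averaged 751 ± 263 RPKM in Gcg KO livers at 150 µg per day and 473 ± 48.8 RPKM in those without infusion (SD, n = 4 and 3). In WT livers Itih3 averaged 745 ± 314 RPKM at 150 µg per day and 433 ± 118 RPKM without infusion (n = 4 and 3). Its whole range was 3.78-fold, the narrowest of the 10.

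**Figure D3:**
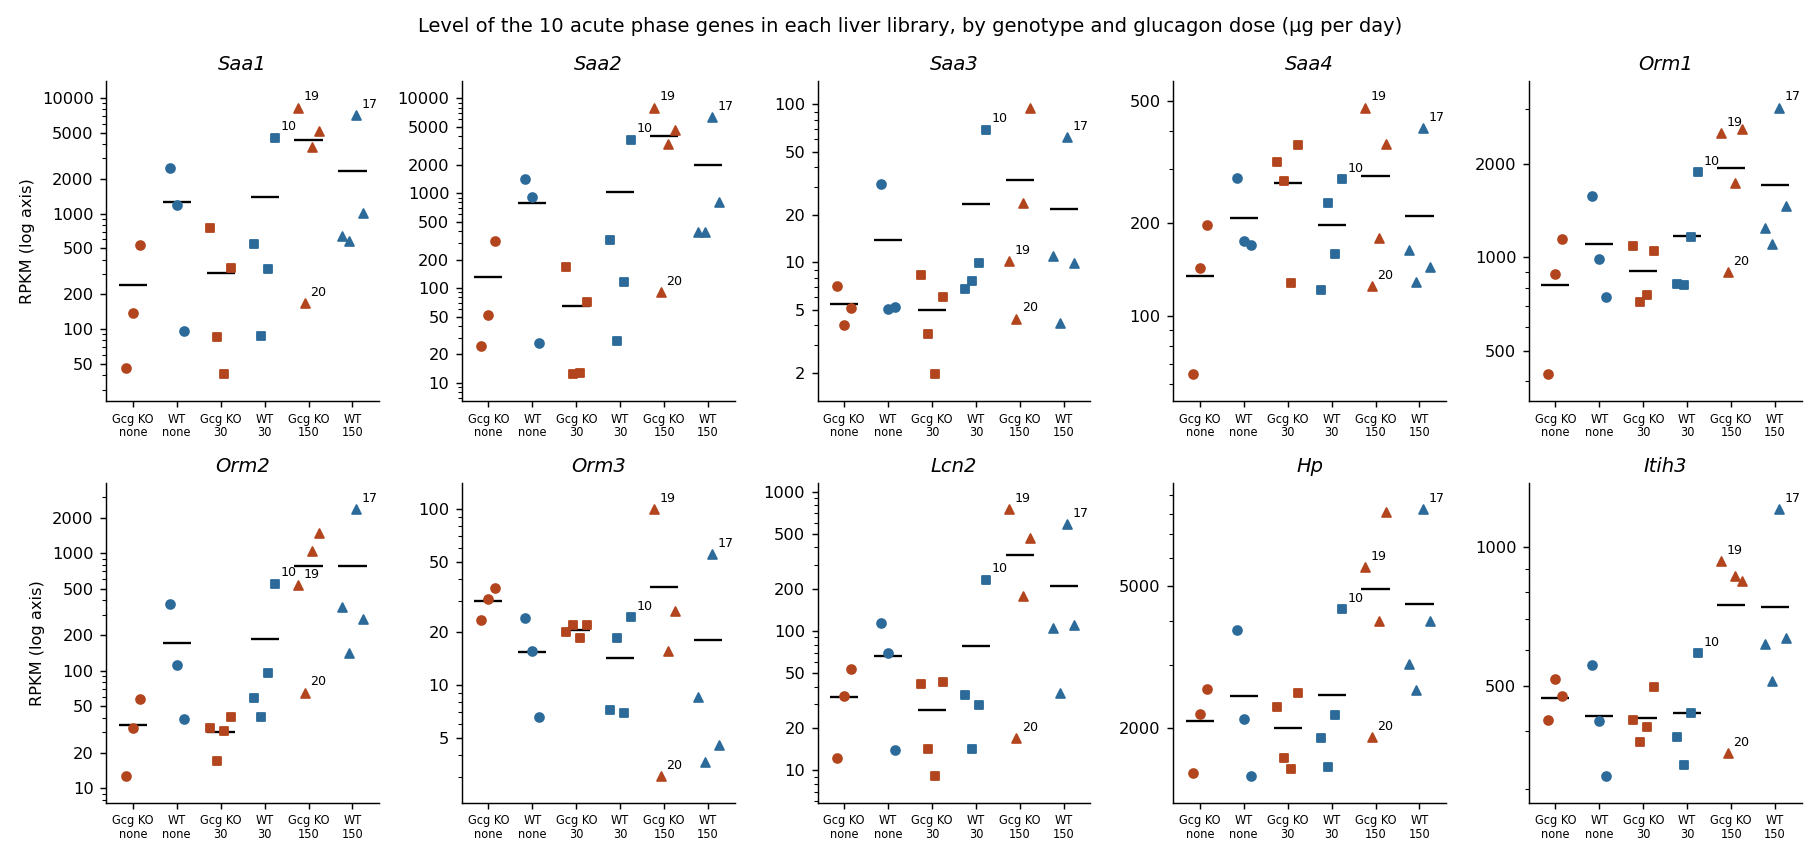
RPKM of each gene (vertical, log axis) in each library, grouped by genotype and dose in µg per day; circles, squares and triangles mark no infusion, 30 and 150 µg per day, red is Gcg KO, blue is WT, and horizontal bars are group means. Numbers name libraries 10, 17, 19 and 20, each the highest or lowest of its group for several genes, such as library 20 with 169 RPKM of Saa1 beside 3784 to 8245 RPKM.

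By mean RPKM, Gcg KO mice at 150 µg per day were the highest of the 6 groups for all 10 genes. By median this did not hold for Saa4 and Orm3. The Saa4 median was 271 RPKM in that group, against 296 RPKM in Gcg KO mice at 30 µg per day. The Orm3 median was 20.96 RPKM, against 30.6 RPKM in Gcg KO mice without infusion. The Orm3 mean at 150 µg per day includes library 19, at 99.5 RPKM. By mean, WT mice at 150 µg per day came second for Saa1, Saa2, Orm1, Orm2, Lcn2, Hp and Itih3. At that dose the Orm2 mean was 783 ± 616 RPKM in the Gcg KO and 781 ± 1056 RPKM in the WT group (SD, n = 4 each). The lowest means were in Gcg KO mice without infusion for Saa1, Saa4 and Orm1, and in Gcg KO mice at 30 µg per day for Saa2, Saa3, Orm2, Lcn2, Hp and Itih3. For Orm3 the lowest mean was that of WT mice at 30 µg per day. Neighbouring groups in these orders overlapped in every gene but 1: for Orm3, Gcg KO mice without infusion (23.3 to 35.5 RPKM) lay above those at 30 µg per day (18.4 to 21.9 RPKM).

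At 150 µg per day in Gcg KO mice, against no infusion, Orm2 was the 1 gene of 10 that passed the test (limma on log2(RPKM + 1), Benjamini-Hochberg adjustment over 11590 genes). Its level rose by 4.01 ± 1.07 on the log2(RPKM + 1) scale (SE), about 16.1-fold, with an adjusted p of 0.0494 and a 95% confidence interval of 1.77 to 6.25. In that comparison 2.72% of all genes were called (315 of 11590), and Orm2 ranked 315 by p-value, the last one called. The other 9 genes did not pass. Saa2 differed by 4.62 ± 1.74 (adjusted p = 0.16), Saa1 by 3.92 ± 1.496 (adjusted p = 0.166), Lcn2 by 2.64 (adjusted p = 0.230), Saa3 by 1.63 (adjusted p = 0.369), Orm1 by 1.24 (adjusted p = 0.121), Hp by 1.08 (adjusted p = 0.222), Saa4 by 1.02 (adjusted p = 0.277) and Itih3 by 0.58 (adjusted p = 0.321), with Orm3 at -0.55 (adjusted p = 0.770). The difference was positive in 9 of 10 genes, with a median of 1.43, against -0.04 over all genes tested, and 6 of 10 had an unadjusted p under 0.05, as did 18.4% of all genes.

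The Orm2 call was borderline. Leaving out any 1 of libraries 4, 5, 6, 19, 21 or 22 ended it, with adjusted p between 0.0516 and 0.206, whereas without library 20 the difference was 4.97 with an adjusted p of 0.0178. Without libraries 4 and 13 it was 3.44 (adjusted p = 0.206). The exact two-sided permutation test of Orm2 alone gave p = 0.0571 (n = 4 and 3), where 0.0286 is the smallest possible.

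Against 30 µg per day, the Gcg KO mice at 150 µg per day had none of the 10 genes called, where 0.544% of all genes were. Orm2 differed by 4.02 ± 0.99 (adjusted p = 0.0716, limma), with 65.3 to 1489 RPKM at 150 µg per day and 17.2 to 40.1 RPKM at 30 µg per day; 6.29% of genes tested separated in this way. Saa2 differed by 5.57 ± 1.61 (adjusted p = 0.126), Saa1 by 3.72 ± 1.39 (adjusted p = 0.239), Lcn2 by 2.98 (adjusted p = 0.220), Saa3 by 1.83 (adjusted p = 0.383), Hp by 1.14 (adjusted p = 0.250), Orm1 by 1.004 (adjusted p = 0.270) and Itih3 by 0.72 (adjusted p = 0.267). Saa4 (-0.01) and Orm3 (-0.05) were close to level. The unadjusted p was under 0.05 for 8 of the 10, and for 12.9% of all genes. Without library 20, Orm2 (4.98, adjusted p = 0.0200) and Saa2 (7.01, adjusted p = 0.0475) were called. This comparison and the one with no infusion share the 150 µg per day libraries.

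In WT mice at 150 µg per day against no infusion, 8 of 10 differences were positive and none was called, where 0.293% of all genes were. Orm2 differed by 1.85 ± 1.07 (adjusted p = 0.510), Saa2 by 1.51 (adjusted p = 0.780), Lcn2 by 1.35 (adjusted p = 0.679), Saa1 by 0.96 (adjusted p = 0.853), Hp by 0.81 (adjusted p = 0.507), Itih3 by 0.74 (adjusted p = 0.334), Orm1 by 0.58 (adjusted p = 0.619) and Saa3 by 0.43 (adjusted p = 0.903). Orm3 (-0.43) and Saa4 (-0.11) had negative differences. The median was 0.77, against -0.02 over all genes. The highest WT value at 150 µg per day was that of library 17 for all 10 genes. The direction depended on single libraries for 4 genes: without library 3 of the uninfused WT mice, Saa1 differed by -0.42 and Saa2 by -0.29, without library 17 Saa3 differed by -0.29, and without library 1, 16 or 18 Saa4 differed by 0.01 to 0.12.

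Between Gcg KO and WT livers without infusion, 8 of 10 differences were negative and none of the 10 passed (1.54% of all genes did). Saa2 differed by -2.15 (adjusted p = 0.597), Saa1 by -2.12 (adjusted p = 0.524), Orm2 by -1.97 (adjusted p = 0.391), Saa3 by -0.76 (adjusted p = 0.745), Lcn2 by -0.75 (adjusted p = 0.803), Saa4 by -0.73 (adjusted p = 0.507), Orm1 by -0.48 (adjusted p = 0.630) and Hp by -0.16 (adjusted p = 0.906). Orm3 (1.06, adjusted p = 0.587) and Itih3 (0.16, adjusted p = 0.845) were higher in the mean of the Gcg KO livers. With 3 libraries against 3, an exact permutation test cannot go below p = 0.1. Hp changed direction in several settings, with 0.21 without library 1 and 0.06 without library 4, as did Saa3 (0.04 without library 1) and Itih3 (-0.04 without library 3).

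The remaining comparisons had no call among the 10 genes. At 30 µg per day against no infusion, medians over the 10 genes were -0.10 in Gcg KO mice and -0.12 in WT mice, with adjusted p of at least 0.492 and 0.96. All genes called were 0.0863% in Gcg KO mice and 0% in WT mice, where limma gave 657 genes an unadjusted p under 0.05. In the Gcg KO comparison, Saa4 alone of the 10 had an unadjusted p under 0.05 in limma, as did 10.1% of all genes. WT mice at 150 against 30 µg per day had a median of 0.76 and adjusted p of at least 0.530, with 0.00863% of genes called. Gcg KO against WT mice had a median of -0.62 at 30 µg per day and 0.42 at 150 µg per day, with 0.328% and 0.0259% of genes called. At 30 µg per day, Orm2 in Gcg KO livers (17.2 to 40.1 RPKM) lay just below all 4 WT livers (40.7 to 552 RPKM), a separation seen in 6.32% of genes tested, for which the exact permutation test (two-sided) gave 0.0286 and limma an adjusted p of 0.472. The test of whether the response to 150 µg per day differed between genotypes called none of the 10 and 0% of all genes (1187 had an unadjusted p under 0.05 in limma), with a median difference of 1.17 and adjusted p of at least 0.598. For 30 µg per day that test called none of the 10 and 0.00863% of all genes.

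**Figure D4:**
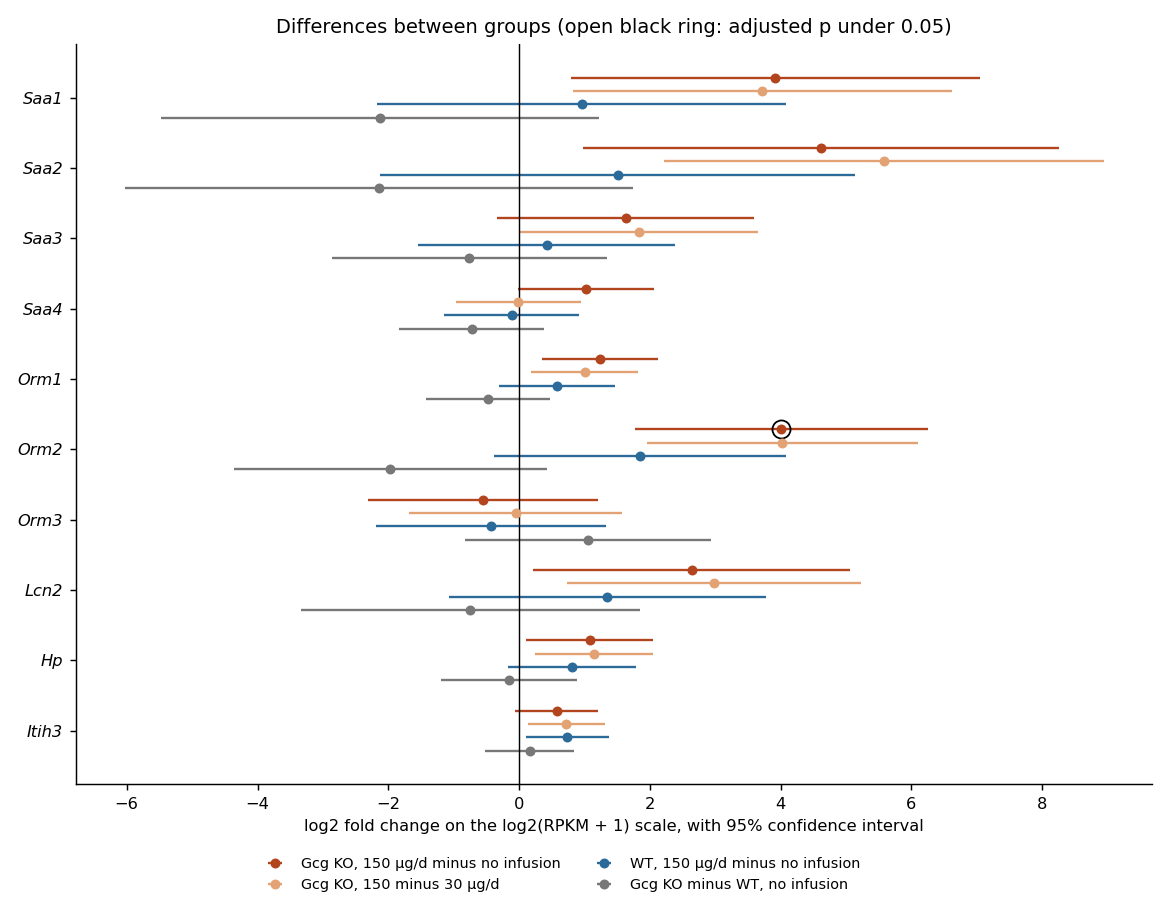
Log2 fold change on the log2(RPKM + 1) scale (horizontal, with 95% confidence intervals from limma) of each gene in 4 comparisons between groups, named by colour in the legend. Intervals for Saa1 and Saa2 span several log2 units, and the black ring marks Orm2 at 150 µg per day in Gcg KO mice (4.01), the 1 called difference.

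The 10 genes moved together from library to library within groups. After the mean of each group was taken off, all 45 pairs of genes had a positive Pearson correlation over the 22 libraries, from 0.584 (Saa3 and Orm3) to 0.989 (Saa1 and Saa2). With permutation of libraries within groups and adjustment over the 45 pairs, all 45 had an adjusted p under 0.05, the largest being 0.0479. Without taking off group means, 39 of the 45 pairs passed by Pearson's r. The share of pairs that would pass among the other genes tested was not computed, so neither count has a background to be set against. Saa1 and Saa2 had a Pearson r of 0.983 and a Spearman rho of 0.980 (adjusted p of 1.87e-05 and 2.5e-05, from 1e-05, the smallest that 100000 permutations can give), and r was 0.979 without the 2 libraries farthest from the median of Saa1. Lcn2 correlated with Hp at r = 0.962 and rho = 0.951, and Orm1 with Hp at r = 0.957 and rho = 0.964, with the same smallest p. The part of shared reads in the correlations within a family was not tested.

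Orm3 was the exception in the pooled values. All 6 pairs whose r did not pass without group means taken off include Orm3, among them Orm2 and Orm3 (r = 0.221, rho = 0.142, adjusted p = 0.324 and 0.530). Within groups the same pair had r = 0.726 (adjusted p = 0.00865). Orm3 thus moved with the others among libraries of a group. On the log2(RPKM + 1) scale of these correlations, its highest group mean was that of Gcg KO mice without infusion. Against that group, Gcg KO mice differed by -0.55 at 150 µg per day and by -0.50 at 30 µg per day. By mean RPKM the uninfused Gcg KO group came second, behind Gcg KO mice at 150 µg per day, which include library 19.

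The balance between copies differed between libraries. The ratio of Saa1 to Saa2 was 1.03 to 1.87 in the 4 Gcg KO livers at 150 µg per day and 1.13 to 1.64 in the 4 WT livers at that dose, against 3.24 to 6.97 in Gcg KO and 1.23 to 3.14 in WT livers at 30 µg per day. Livers without infusion had 1.72 to 2.65 (Gcg KO) and 1.295 to 3.66 (WT). The 4 libraries with the most Saa1 and Saa2 together, 19, 17, 22 and 10, had ratios of 1.03, 1.13, 1.12 and 1.23, near equality. At lower sums the ratio varied widely, with 1.91 in library 4 (70.6 RPKM of both together), 6.97 in library 12 (98.3 RPKM), 1.72 in library 6 (849 RPKM) and 4.59 in library 11 (921 RPKM), and its relation to the sum was not tested. The ratio of Orm2 to Orm1 ran from 0.0239 in library 12 to 0.781 in library 17. It averaged 0.365 ± 0.263 in Gcg KO mice at 150 µg per day, 0.0331 ± 0.0076 at 30 µg per day and 0.0392 ± 0.0102 without infusion (SD, n = 4, 4 and 3). These ratios are of RPKM values whose division between copies is uncertain.

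**Figure D5:**
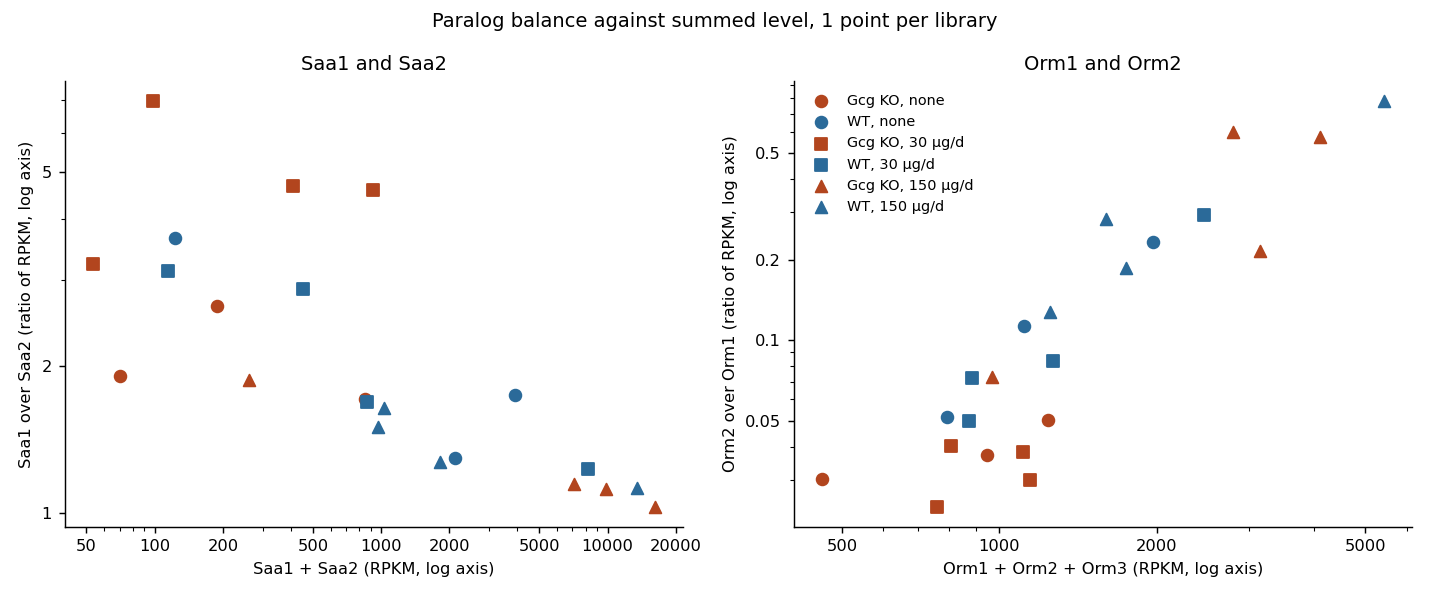
Ratio of Saa1 to Saa2 against their sum (left) and of Orm2 to Orm1 against the sum of the 3 Orm genes (right), in RPKM on log axes, 1 point per library, with genotype as colour and dose as shape. Saa1 over Saa2 is 1.03 to 1.23 in the 4 libraries with the highest sums and scattered below them, and Orm2 over Orm1 reaches 0.781 in library 17.

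Among 9960 other genes, Lrg1, which encodes the secreted leucine-rich alpha-2-glycoprotein, was the most like Saa1 (Pearson r of log2 values 0.933), Orm1 (0.956), Lcn2 (0.961) and Hp (0.938). Fgl1, which encodes the hepatokine fibrinogen-like 1, was the most like Itih3 (0.946). Itih4 of the same family as Itih3, Hpx (haemopexin, which binds free haem), Serpina10, Ambp, Clu (clusterin) and Ifitm2 completed the 4 most like genes of Saa1, Orm1, Lcn2, Hp or Itih3. These correlations are descriptions over 22 libraries in which the same libraries are high. Lrg1 itself ran from 117 to 974 RPKM.

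A list of 35 other positive acute phase genes was examined, of which 34 could be tested. In Gcg KO mice at 150 µg per day against no infusion, 28 of the 34 had positive differences, with a median of 0.34 against -0.04 over all genes; none was called higher and 1, Cd14, lower, a share near the 2.72% called over all genes. Cd14 encodes a co-receptor for bacterial lipopolysaccharide; it averaged 1.19 ± 0.50 RPKM at 150 µg per day and 2.72 ± 0.26 RPKM without infusion (SD, n = 4 and 3; log2 difference -0.79, adjusted p = 0.0420 in limma). Against 30 µg per day, 26 of 34 had positive differences, with a median of 0.32, and 2 were called higher, where 0.544% of all genes were called. Among all genes tested, 45.2% of differences were positive in that comparison, with a median of -0.02. Mt1, which encodes the metal-binding metallothionein 1, averaged 1010.0 ± 754 RPKM at 150 µg per day and 31.0 ± 4.63 RPKM at 30 µg per day in Gcg KO livers (n = 4 each; log2 difference 4.49, adjusted p = 0.0239). Itih4 averaged 1475 ± 424 RPKM and 722 ± 82.1 RPKM in those groups (n = 4 each; 0.98, adjusted p = 0.0464). In WT mice at 150 µg per day against no infusion, 29 of 34 were positive, with a median of 0.24 and no call. Among all genes tested, 46.2% were positive there, with a median of -0.02, and 0.293% were called. Without infusion, Cd14 was also called, higher in Gcg KO livers (2.72 ± 0.26 RPKM) than in WT livers (0.844 ± 0.334 RPKM, n = 3 each; 1.02, adjusted p = 0.0296). It was the only 1 of the 34 called between these groups, where 1.54% of all genes were.

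Negative acute phase genes, such as albumin and transthyretin, fall in inflammation. Of 11 on the list, all tested, 1 had a positive difference in Gcg KO mice at 150 µg per day against no infusion, with a median of -0.34. In WT mice at 150 µg per day against no infusion 4 were positive, with a median of -0.05, and between Gcg KO and WT mice without infusion 9 were positive, with a median of 0.21. Over all genes, 41.5%, 46.2% and 52.1% of differences were positive in these comparisons, in the order given. In Gcg KO mice at 150 µg per day, Gc, the vitamin D binding protein, fell by 0.43 on the log2 scale (adjusted p = 0.0186), to 3128 ± 213 RPKM against 4207 ± 365 RPKM without infusion (n = 4 and 3). Without infusion, Gc was higher in Gcg KO livers (4207 ± 365 RPKM) than in WT livers (3189 ± 78.8 RPKM, n = 3 each; 0.40, adjusted p = 0.0452). No other gene of the list was called in these comparisons. Over all genes, 2.72% were called in Gcg KO mice at 150 µg per day against no infusion, and 1.54% between genotypes without infusion.

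Of 25 tested genes of interleukin-6, interleukin-1 and C/EBP signalling, 1 rose and 1 fell in Gcg KO mice at 150 µg per day against no infusion, where 2.72% of all genes were called. The median difference was 0.04. Stat3, the transcription factor downstream of interleukin-6, was at 41.8 ± 5.34 RPKM, against 23.0 ± 3.16 RPKM without infusion (n = 4 and 3; log2 difference 0.83, adjusted p = 0.00373 in limma). Nfkbia, an inhibitor of NF-kappa-B, was at 17.1 ± 3.11 RPKM, against 27.6 ± 3.91 RPKM (-0.67, adjusted p = 0.0378). Against 30 µg per day, Stat3 (0.76, adjusted p = 0.00772) and Tnfrsf1a, a receptor of tumour necrosis factor (0.72, adjusted p = 0.00772), rose in Gcg KO mice. They were the only 2 of the 25 called in that comparison, where 0.544% of all genes were. Of 18 cytokine and chemokine genes only 7 reached the testing level. Il6 stayed at or below 0.264 RPKM in every library, and Il1a fell to 1.25 ± 0.345 RPKM at 150 µg per day in Gcg KO livers, against 2.89 ± 0.458 RPKM without infusion (n = 4 and 3; -0.80, adjusted p = 0.0161).

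Of 14 genes of glucocorticoid action, Tat and Pck1, which are also targets of glucagon, rose in Gcg KO mice at 150 µg per day against no infusion. The list had a median difference of 0.41, with 9 of 14 positive, and 2.72% of all genes were called in that comparison. Tat was at 899 ± 386 RPKM, against 211 ± 50.6 RPKM (log2 difference 2.004, adjusted p = 0.0161), and Pck1 at 1587 ± 385 RPKM, against 520 ± 158 RPKM (1.62, adjusted p = 0.0161; n = 4 and 3). Hsd11b1, which regenerates active glucocorticoid, fell to 221 ± 18.7 RPKM, against 357 ± 38.0 RPKM (-0.69, adjusted p = 0.0165). Without infusion, Tdo2 was lower in Gcg KO livers (510 ± 102 RPKM) than in WT livers (931 ± 74.1 RPKM, n = 3 each, log2 difference -0.88, adjusted p = 0.0319). Between these groups the list had a median of -0.31, with 5 of 14 positive, and 1.54% of all genes were called. Each call named from these lists was lost in at least 1 alternative setting. For Stat3 and Tnfrsf1a that was only the fit of the compared groups alone (adjusted p = 0.118 for Stat3 against no infusion, and 0.0746 for both against 30 µg per day). The other 12 calls were each also lost without at least 1 single library. Against no infusion at 150 µg per day, leaving out library 5 ended those of Cd14, Gc, Nfkbia, Il1a, Tat, Pck1 and Hsd11b1, leaving out library 4 all of these but Pck1, library 21 those of Cd14, Gc, Nfkbia, Tat and Pck1, library 22 those of Cd14, Gc, Nfkbia and Hsd11b1, library 20 those of Cd14 and Nfkbia, and library 6 that of Cd14. Against 30 µg per day, library 11, 12, 14, 21 or 22 ended those of Mt1 and Itih4, and library 13 or 19 that of Itih4. Between genotypes without infusion, library 2, 3, 4 or 5 ended those of Cd14, Gc and Tdo2, and library 1 those of Gc and Tdo2.

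The summed level of neutrophil markers was highest in the libraries with the most Saa1. The 12 neutrophil markers summed to 3.70 to 17.5 RPKM in Gcg KO mice at 150 µg per day, 5.52 to 62.1 RPKM in WT mice at that dose, 3.70 to 5.57 RPKM in Gcg KO and 3.23 to 13.7 RPKM in WT mice at 30 µg per day, and 4.69 to 9.68 RPKM in Gcg KO and 4.55 to 7.36 RPKM in WT mice without infusion. The 4 highest sums were in libraries 17 (62.1 RPKM), 22 (17.5 RPKM), 19 (15.96 RPKM) and 10 (13.7 RPKM), which are also the 4 libraries with the most Saa1. S100a8 and S100a9 reached 20.9 and 28.3 RPKM, both in library 17, and made up most of its sum. With group means taken off, their Pearson r with Saa1 was 0.587 and 0.585. For Csf3r and Cxcr2, the other tested markers, it was 0.386 and 0.131. Ly6g, Mpo, Elane and Mmp8 stayed below 1 RPKM in every library, and Camp was at 0 in 16 of the 22. None of the 4 tested neutrophil markers, of the 11 tested macrophage markers or of the 2 tested adipocyte markers was called in Gcg KO mice at 150 µg per day against no infusion. In that comparison 2.72% of all genes were called. Macrophage markers summed to 179 to 374 RPKM over all libraries, 199 to 344 RPKM in Gcg KO mice at 150 µg per day and 317 to 327 RPKM in those without infusion, and 0 of the 11 tested had a positive difference between these groups (median -0.27). In WT mice at 150 µg per day against no infusion all 11 were positive (median 0.38), as were all 11 between Gcg KO and WT mice without infusion (median 0.49), with none called in either comparison, where 0.293% and 1.54% of all genes were. Of the 4 neutrophil markers, 3, 4 and 2 had positive differences in these 3 comparisons, in the order given (medians 0.27, 0.57 and 0.14). Among all genes tested, 41.5%, 46.2% and 52.1% of differences were positive in them. Among adipocyte markers Lep was at 0 throughout and Adipoq at most 0.288 RPKM. The part of these cells in the differences was not tested.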

How the data were processed

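Polyadenylated liver RNA was sequenced as strand-specific libraries, per the labels' protocols. GRCm38, CASAVA 1.8.2 and FastQC appear in the submitters' processing notes, whereas no source used here names an aligner, a counter or an annotation. The authors deposited 1 table of RPKM values, 24475 genes in 22 libraries, and 5599 genes were at 0 throughout. Read counts were not recovered: with totals estimated at 11.17 to 17.82 M reads, only 59.4 to 64.5% of low values came within 0.1 read of a whole number. No 2 libraries held identical values.

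Values were taken as log2(RPKM + 1). Genes with a mean of at least 0.5 RPKM (11590) entered 1 limma-trend fit of 6 groups (limma 3.58.1, R 4.3.3; 16 residual and 3.18 prior degrees of freedom). The fit gave 11 comparisons, each with two-sided p-values and Benjamini-Hochberg adjustment over all 11590 genes, and genes were called at an adjusted p under 0.05. Every adjusted p of a difference between groups is from this limma fit unless another test is named. Single genes were also compared by exact permutation of libraries, and pairs of genes by 100000 permutations with scipy 1.17.1. Python 3.11.15, pandas 2.3.3, numpy 2.4.6, biopython 1.88 and matplotlib 3.10.9 were used for the rest. Promoter windows are from RefSeq and coding sequences from GENCODE M21.

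The 10 genes, the gene lists and the libraries left out were chosen with earlier results of these data known. Named besides the 10 genes are up to 4 called genes per list and comparison, by adjusted p, and the 4 genes most like each of Saa1, Orm1, Lcn2, Hp and Itih3. A few marker genes and Il6 were named beyond this rule after their values were seen. Alternatives changed the pseudocount, the filter, the scaling, the weights, the groups fitted and the libraries included.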

Additional observations from a re-analysis of the deposited data

Results flagged for a closer look

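In RPKM, 13 values lay far from the other 3 of their group by Dixon's test, among 40 sets of 4 values tested. The rate of about 1 in 20 that chance gives holds for values with a normal spread, and RPKM values of these genes are skewed. On the log2(RPKM + 1) scale, a check added after the data were seen, 2 of the 40 sets passed: Saa3 in library 10 and Itih3 in library 20. The values of 1 library are not independent across these genes.

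In RPKM, library 17 of WT mice at 150 µg per day stood far above its group for 7 genes: Saa1 at 7145 RPKM, Saa2 at 6351 RPKM, Saa3 at 62.0 RPKM, Saa4 at 408 RPKM, Orm2 at 2360.2 RPKM, Orm3 at 55.3 RPKM and Lcn2 at 584 RPKM. Library 10 of WT mice at 30 µg per day did so for 5 genes: Saa1 at 4547 RPKM, Saa2 at 3684 RPKM, Saa3 at 69.3 RPKM, Orm2 at 552 RPKM and Lcn2 at 234 RPKM. Library 20 of Gcg KO mice at 150 µg per day was far below its group for Itih3, at 359 RPKM.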

How the results depend on the processing

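No paired analysis was possible because the library numbers are unique. Members called in Gcg KO mice at 150 µg per day against no infusion (1, Orm2) became 0 with no filter on low values, with quantile normalization, with the compared groups alone and with libraries 4 and 13 left out. The adjusted p of Orm2 was then 0.0963, 0.0506, 0.183 and 0.206. Leaving out 1 library at a time gave 0 to 1 calls. Against 30 µg per day (0 called), array weights gave 1 (Orm2) and leaving out 1 library gave 0 to 2. In the other 9 comparisons 0 were called under every alternative run.

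Directions of uncalled differences changed as follows, with ranges over 1 library left out. In WT mice at 150 µg per day against no infusion the ranges were -0.42 to 1.91 for Saa1, -0.29 to 2.56 for Saa2, -0.29 to 1.23 for Saa3 and -0.48 to 0.12 for Saa4. In Gcg KO against WT mice without infusion they were -1.18 to 0.040 for Saa3, -0.47 to 0.21 for Hp and -0.038 to 0.36 for Itih3. Hp was also 0.021 with quantile normalization, 0.13 with array weights and 0.064 without libraries 4 and 13. In Gcg KO mice Orm3 ranged from -1.31 to 0.23 at 150 µg per day against no infusion and from -0.81 to 0.73 against 30 µg per day. Saa4 ranged from -0.34 to 0.32 against 30 µg per day, and was 0.0066 with median-of-ratios scaling. The cause was not tested. Of 670 alternatives over 40 differences, 634 kept direction and call.

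The number of libraries, and values without recoverable read counts, limit the precision. In groups of 3 or 4 libraries with SDs near the mean, differences of several fold did not pass.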
